A study of Mus musculus with 8 samples.

Results

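The messenger RNA of 34 genes of sterol and fatty acid synthesis was followed across 4 groups of BV-2 cells, treated for 24 h. BV-2 is an established line of mouse microglia, immortalised by a retrovirus. The members are genes bound up with the sterol regulatory element-binding proteins (SREBPs) and were chosen by name. They comprise 24 genes of a sterol arm and 10 of a fatty acid arm (Srebf1, Fasn, Scd1, Scd2, Acly, Acaca, Elovl5, Elovl6, Fads1 and Fads2). Control cells received nothing. The LPS group received lipopolysaccharide, the endotoxin of Gram-negative bacteria, at 1 µg/mL. The HF group received the hexane fraction of the mushroom Amauroderma rugosum at 100 µg/mL, and the LPS+HF group received both at these doses. Each group had 2 single-colour Agilent arrays, 8 in all. The study calls them biological replicates, but whether they came from independent cultures is not stated, so SE and adjusted p measure only the spread between these arrays. Precision is limited by how few arrays there are. A gene was represented by its probe with the highest mean. A level is the log2 signal relative to the 75th percentile of its array. It can be compared between arrays for 1 gene, but not between genes. Of the 34 members, 32 were among the 22460 genes tested: all 24 of the sterol arm and 8 of the fatty acid arm. Scd1, a stearoyl-CoA desaturase, was well above background on 0 arrays, and Fads2, a desaturase of polyunsaturated fatty acids, on 1 array (HF replicate 2), so neither was tested. The 32 tested members were well above background on all 8 arrays, except Cyp51, which was not on control replicate 1.

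SREBPs are transcription factors made as precursors in the membrane of the endoplasmic reticulum. When sterols are low, the escort protein SCAP carries the precursor to the Golgi, where it is cut and the active part moves to the nucleus. When sterols are abundant, the INSIG proteins hold SCAP and its cargo back. SREBP-2, from Srebf2, acts mainly on genes of cholesterol synthesis, and SREBP-1, from Srebf1, mainly on genes of fatty acid synthesis, which liver X receptors also drive. In macrophages and microglia, sterol synthesis is known to be tied to interferon and inflammatory responses.

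The arrays were checked before the members were read. Control replicate 1 stood apart: its repeated probes varied with a coefficient of 50.9% (6.73% to 9.18% elsewhere), and 13.1% of its spots lay in dimmed areas, among them those of Cyp51, Fads1 and Scd1. The scanner software marked it and HF replicate 1 for evaluation. Over all genes the SD of the difference between the 2 replicates was 0.99 log2 in the control group, 0.28 in LPS, 0.49 in HF and 0.34 in LPS+HF. All arrays lay on 1 slide, where the groups with HF filled 1 row and those without it the other, and each LPS state its own columns, so treatment and place on the slide cannot be told apart. All 8 microglia and macrophage markers were well above background on all arrays (levels from 2.17 to 8.19). Of the astrocyte markers, Aqp4 and Aldh1l1 were well above background on 8 arrays, Gfap on 5 and Slc1a2 on 0, at levels from -6.74 to -2.56. Of the neuron markers, Snap25 was so on 8 arrays (2.66 to 3.50), Rbfox3 on 3, and Syt1 and Stmn2 on 0. The oligodendrocyte markers Mbp, Mag and Mog were so on all 8.

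In LPS-treated cells, HF went with lower levels of 9 sterol genes and with higher levels of 2 fatty acid genes. Mvd, Insig2, Fasn and Elovl6 passed both with LPS alone and with HF on top of LPS, each with opposite signs in these comparisons, which share the LPS arrays. With LPS alone (LPS minus control), Mvd and Insig2 rose and Idi1, Ebp, Stard4, Fasn and Elovl6 fell, by 1.48-fold (Elovl6) to 3.16-fold (Mvd). These are 2 members higher and 5 lower of the 32 tested, read against 11.1% of all genes called (4.8% higher, 6.34% lower; limma, adjusted p under 0.05, two-sided). With HF on top of LPS (LPS+HF minus LPS), Mvk, Pmvk, Mvd, Fdps, Fdft1, Lss, Nsdhl, Insig1 and Insig2 fell by 1.66-fold (Insig2) to 2.89-fold (Mvd), and Fasn and Elovl6 rose by 1.69-fold and 1.55-fold. That is 9 of 24 sterol genes lower and 0 higher, and 2 of 8 fatty acid genes higher and 0 lower, against 6.25% of all genes called, 3.26% lower and 2.99% higher. In these bulk cultures, fewer cells of a kind and less RNA per cell cannot be told apart.

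The median log2 difference of LPS+HF minus LPS was -0.71 in the sterol arm, 0.15 in the fatty acid arm and -0.07 over all genes. A log2 difference below 0 was found for 19 of 24 sterol genes and 3 of 8 fatty acid genes, against 56.2% of all genes. Both LPS+HF arrays lay below both LPS arrays for 17 sterol genes and above them for 3 (41.2% and 32.7% of all genes), and the same counts in the fatty acid arm were 2 and 5. With LPS alone the order of the arms was the other way round, with medians of 0.23 in the sterol arm, -0.34 in the fatty acid arm and -0.08 over all genes. Under scaling to the array median these became 0.57, 0.01 and 0.27, so the fatty acid arm's median lost its sign while the gap between the arms stayed. In LPS+HF minus LPS the sterol arm's median lay between -0.79 and -0.55 over the 21 alternatives tried. That of the fatty acid arm lay between 0.06 and 0.31. Alternatives that changed only the variance, the block or the control and HF arrays could not move these medians.

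No member call of LPS+HF minus LPS was kept when any 1 of the LPS, HF or LPS+HF arrays was left out. The HF arrays are not part of this difference and, like the control arrays, enter the comparison only through the shared spread. Leaving out control replicate 1, or replicate 2, gave 17 called members (29.2% of all genes called), since the control arrays enter this comparison only through the shared spread. In LPS minus control 10 members passed without control replicate 1 (20.3% of all genes) and 19 without control replicate 2 (52.7%). None of its member calls was kept without either LPS array. The HF and LPS+HF arrays enter LPS minus control only through the shared spread. Without any 1 of them fewer members, and fewer of all genes, were called.

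**Figure D1:**
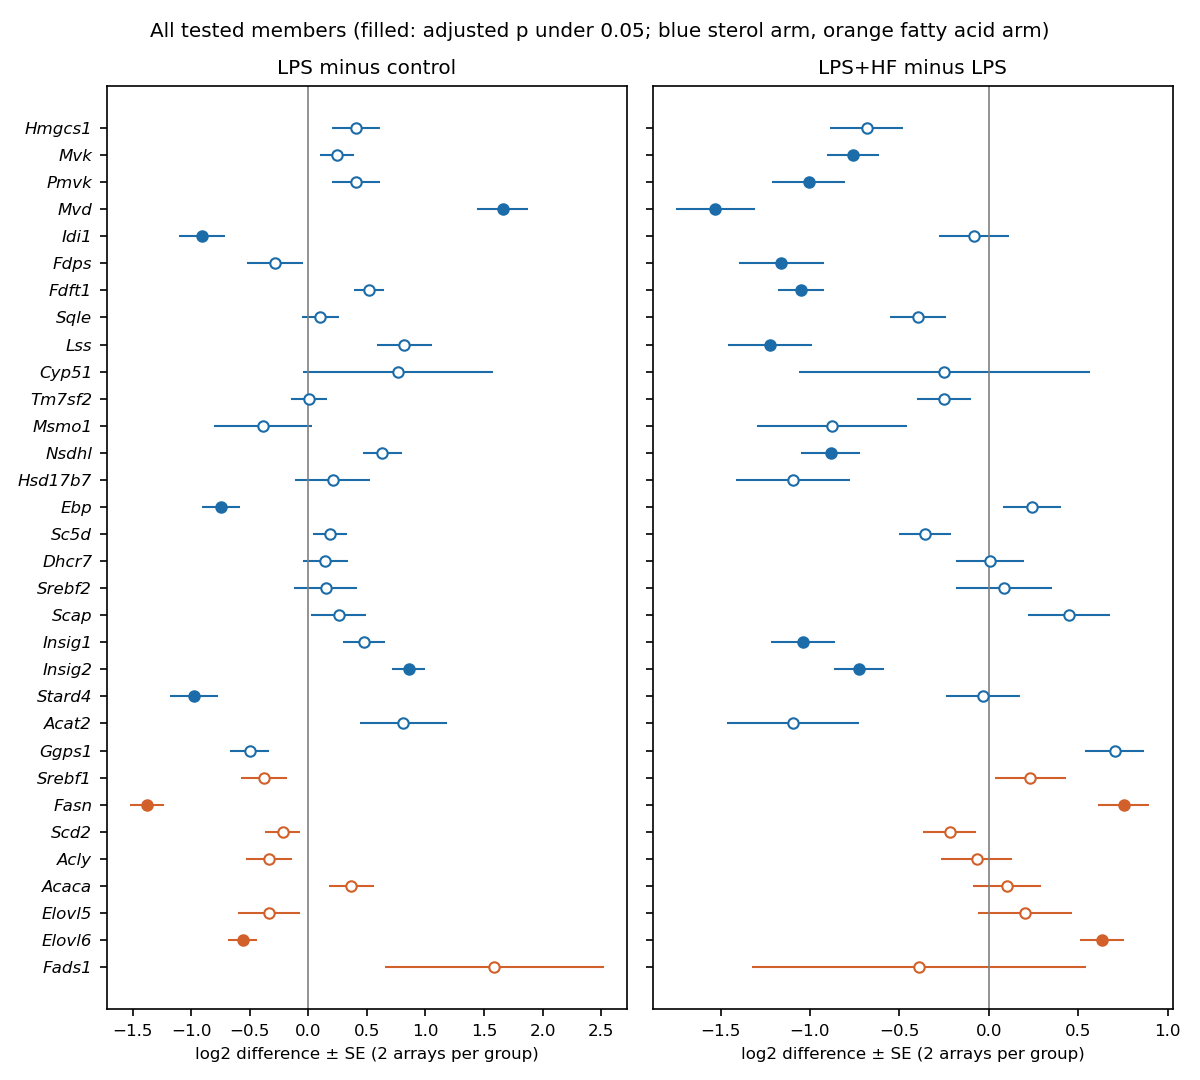
Log2 difference of each of the 32 tested members, with its SE, for LPS minus control (left) and LPS+HF minus LPS (right). The SE rests on 2 arrays per group and a spread shared over all 4 groups, not only those compared. The sterol arm is in blue and the fatty acid arm in orange, filled where the adjusted p was under 0.05. In the right panel 9 filled blue points lie left of 0 and 2 filled orange points, Fasn and Elovl6, lie right of it.

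The early steps of the mevalonate route showed the largest difference at Mvd. Mvk encodes mevalonate kinase. Its level was 3.31 and 3.42 on the control arrays, 3.53 and 3.69 with LPS, 2.94 and 3.12 with HF, and 2.82 and 2.88 with LPS+HF, so that both groups with HF lay below both groups without it. It fell by 0.76 ± 0.14 (SE) log2 from LPS to LPS+HF (limma, adjusted p = 0.0397). Pmvk, the next kinase, read 5.42 and 5.94 in control, 6.03 and 6.14 with LPS, 5.02 and 5.21 with HF, and 5.09 and 5.06 with LPS+HF, again with no overlap between arrays with and without HF. Pmvk fell by 1.01 ± 0.20 between the LPS groups (limma, adjusted p = 0.0455). Mvd, the decarboxylase that makes isopentenyl diphosphate, read 2.03 and 2.62 in control, 4.02 and 3.95 with LPS, 1.52 and 1.74 with HF, and 2.46 and 2.45 with LPS+HF. LPS arrays were the highest and HF arrays the lowest, and the LPS+HF arrays lay within the range of the control arrays. Mvd rose by 1.66 ± 0.22 with LPS (limma, adjusted p = 0.0101; 1.37 without control replicate 1) and fell by 1.53 ± 0.22 with HF on top of LPS (adjusted p = 0.0212). Hmgcs1, HMG-CoA synthase, did not pass at -0.68 (adjusted p = 0.109), although its LPS+HF arrays (3.47 and 3.54) lay below its LPS arrays (4.12 and 4.26).

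Isoprenoid genes did not move as 1 group. Idi1, the isomerase of isopentenyl diphosphate, read 4.08 and 3.67 in control, 2.84 and 3.10 with LPS, 2.89 and 3.06 with HF, and 2.83 and 2.95 with LPS+HF. Control arrays were the highest, and those of the 3 treated groups overlapped. Idi1 fell by 0.91 ± 0.19 with LPS (limma, adjusted p = 0.0373; -0.70 without control replicate 1), and its difference of LPS+HF minus LPS was -0.08. Fdps, farnesyl diphosphate synthase, read 6.85 and 6.15 in control, 6.20 and 6.24 with LPS, 4.85 and 4.94 with HF, and 5.02 and 5.09 with LPS+HF, a gap of over 1 log2 between the groups with and without HF. It fell by 1.16 ± 0.24 from LPS to LPS+HF (limma, adjusted p = 0.0468). Ggps1, which makes the geranylgeranyl donor for protein prenylation, had an opposite sign, 0.70 in LPS+HF minus LPS (adjusted p = 0.0652), but a second probe of the gene gave -0.46, so it has no settled direction.

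From squalene to cholesterol, 3 genes passed in LPS+HF minus LPS, all of them lower. Fdft1, squalene synthase, read 1.92 and 1.77 in control, 2.37 and 2.36 with LPS, 1.08 and 1.09 with HF, and 1.30 and 1.33 with LPS+HF. The order LPS, control, LPS+HF, HF held with no overlap between any of the groups. Fdft1 fell by 1.05 ± 0.13 (limma, adjusted p = 0.0157). Lss, lanosterol synthase, read 0.63 and 1.27 in control, 1.74 and 1.80 with LPS, 0.70 and 0.88 with HF, and 0.46 and 0.62 with LPS+HF, and fell by 1.22 ± 0.23 (limma, adjusted p = 0.0395). Nsdhl, a sterol dehydrogenase of the demethylation steps, read 0.04 and 0.34 in control, 0.84 and 0.80 with LPS, -0.39 and -0.16 with HF, and -0.05 and -0.08 with LPS+HF, and fell by 0.88 ± 0.16 (limma, adjusted p = 0.0371). For both, the LPS arrays were the highest of the 8. Ebp, the sterol isomerase, stood apart: it read 4.85 and 4.49 in control, 3.91 and 3.94 with LPS, 4.50 and 4.40 with HF, and 4.17 and 4.17 with LPS+HF. Its LPS arrays were the lowest, and it fell by 0.75 ± 0.16 with LPS (limma, adjusted p = 0.0399; -0.57 without control replicate 1). With normexp background correction and quantile normalization that difference turned to 0.23, and Ebp's LPS+HF minus LPS value, 0.24, did not pass.

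The other genes of these steps did not pass in either comparison. In LPS+HF minus LPS, Hsd17b7, a sterol ketone reductase, was at -1.10 (adjusted p = 0.105), Msmo1, a methylsterol oxidase, at -0.88 (0.274), Sqle, squalene epoxidase, at -0.40 (0.199), and Sc5d, a sterol desaturase, at -0.36 (0.203). Tm7sf2, a sterol reductase, was at -0.25 and Dhcr7, which catalyses the last step of one branch of the route, at 0.01. Cyp51, lanosterol demethylase, was at -0.25 with an SE of 0.81, since its control and HF replicates differed widely (-2.31 and -0.01, and -2.17 and -0.60). Acat2, which makes acetoacetyl-CoA at the head of the route, was at -1.10 (adjusted p = 0.144). Hsd17b7, Msmo1, Hmgcs1 and Acat2 passed, lower, when control replicate 1 was left out, and so did Ggps1, higher, and Fads1, lower.

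**Figure D2:**
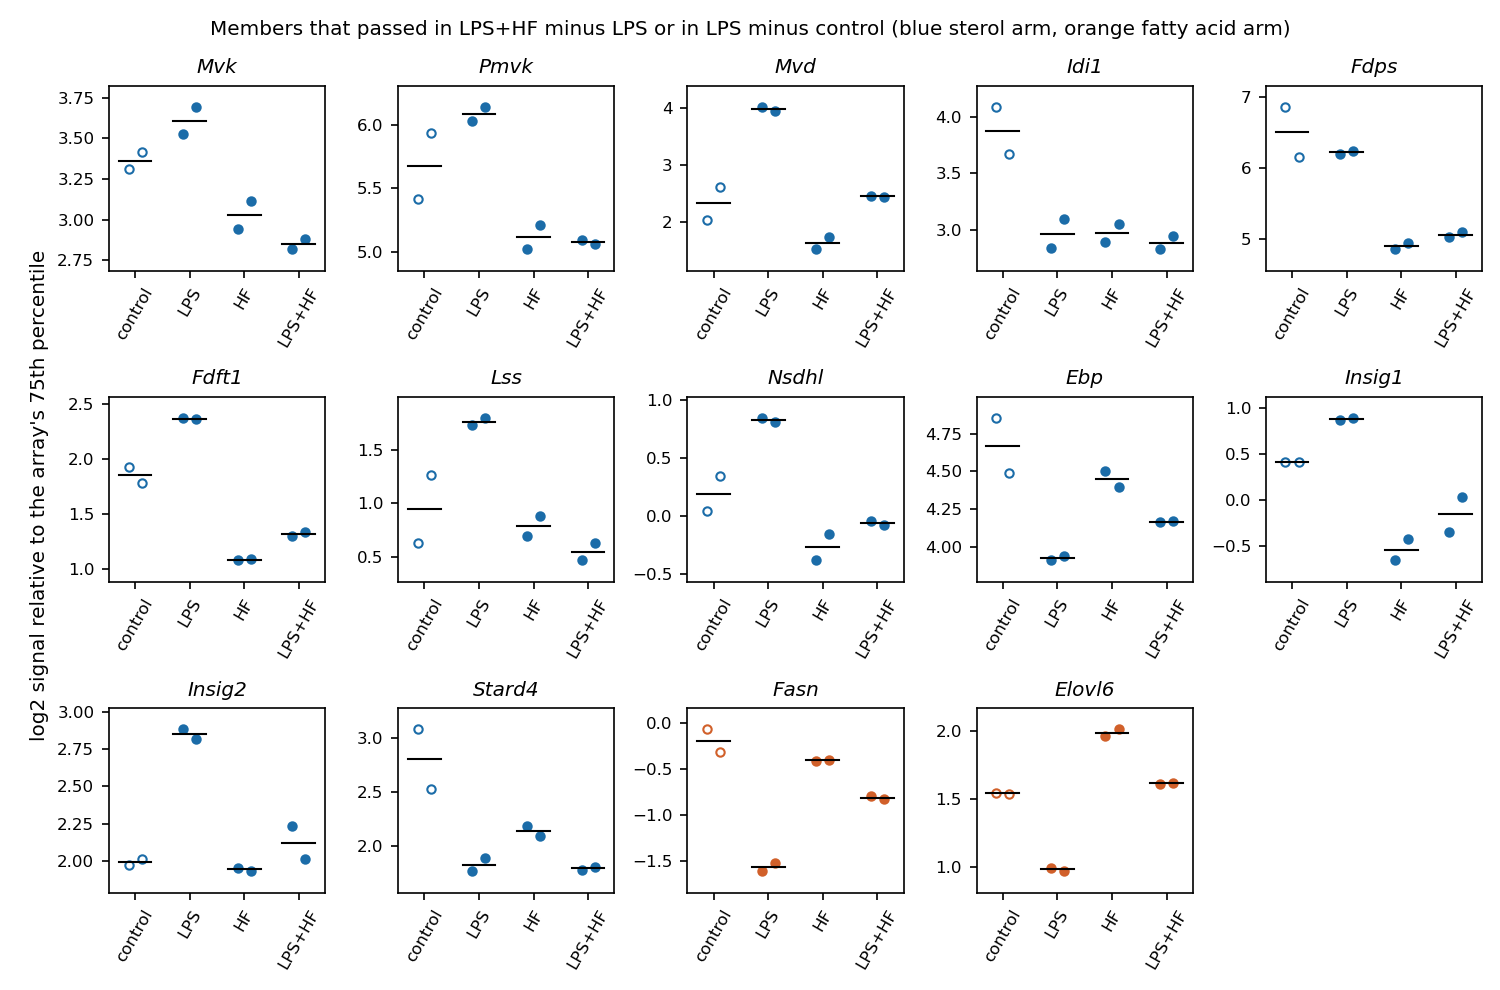
Level (log2 signal relative to the array's 75th percentile, each panel on its own axis that need not start at 0) on each of the 8 arrays for the 14 members that passed in LPS+HF minus LPS or in LPS minus control, with the group mean as a line. Control arrays are open circles. Mvk, Pmvk, Mvd, Fdft1, Lss, Nsdhl, Insig1 and Insig2 are highest on the LPS arrays, and Ebp, Fasn and Elovl6 are lowest there.

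Of the genes that encode the sensing machinery, both Insig genes passed and the transcription factor genes did not. Insig1, itself a target of SREBPs, read 0.41 and 0.41 in control, 0.88 and 0.89 with LPS, -0.66 and -0.42 with HF, and -0.35 and 0.04 with LPS+HF. Arrays with HF lay below those without it, and Insig1 fell by 1.04 ± 0.18 from LPS to LPS+HF (limma, adjusted p = 0.0321). Insig2 read 1.97 and 2.02 in control, 2.88 and 2.82 with LPS, 1.96 and 1.93 with HF, and 2.23 and 2.01 with LPS+HF. LPS arrays stood well above the other 6. Insig2 rose by 0.86 ± 0.14 with LPS (limma, adjusted p = 0.0182) and fell by 0.73 ± 0.14 with HF on top of LPS (adjusted p = 0.0402). Srebf2 read 3.16 and 2.52 in control, 2.87 and 3.12 with LPS, 2.66 and 2.93 with HF, and 3.26 and 2.89 with LPS+HF, and its groups overlapped (LPS+HF minus LPS 0.08 ± 0.27). A second Srebf2 probe gave -0.57 (adjusted p = 0.0547), so the direction of Srebf2 is not settled. Scap read 1.99 and 2.42 in control, 2.38 and 2.55 with LPS, 2.90 and 3.28 with HF, and 3.08 and 2.75 with LPS+HF. Arrays with HF lay above those without it, but neither 0.45 in LPS+HF minus LPS (adjusted p = 0.307) nor 0.88 in HF minus control (adjusted p = 0.148) passed. Stard4, a carrier of cholesterol within the cell, read 3.08 and 2.53 in control, 1.77 and 1.89 with LPS, 2.19 and 2.09 with HF, and 1.78 and 1.81 with LPS+HF. Control arrays were the highest, and Stard4 fell by 0.97 ± 0.21 with LPS (limma, adjusted p = 0.0358; -0.70 without control replicate 1) and was at -0.03 in LPS+HF minus LPS.

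In the fatty acid arm, Fasn and Elovl6 fell with LPS and rose with HF on top of it. Fasn, the fatty acid synthase, read -0.07 and -0.31 in control, -1.61 and -1.52 with LPS, -0.41 and -0.40 with HF, and -0.79 and -0.83 with LPS+HF. The LPS+HF arrays lay between the LPS arrays and the rest. Fasn fell by 1.37 ± 0.14 with LPS (limma, adjusted p = 0.00551; -1.25 without control replicate 1), the lowest adjusted p of any member in any comparison, and rose by 0.75 ± 0.14 from LPS to LPS+HF (adjusted p = 0.0397). Elovl6, an elongase of saturated fatty acids, read 1.54 and 1.54 in control, 0.99 and 0.96 with LPS, 1.96 and 2.01 with HF, and 1.61 and 1.62 with LPS+HF. No groups overlapped, HF arrays being the highest and LPS arrays the lowest. Elovl6 fell by 0.56 ± 0.12 with LPS (limma, adjusted p = 0.0401; -0.56 without control replicate 1) and rose by 0.64 ± 0.12 with HF on top of LPS (adjusted p = 0.0413). The fall with LPS turned to 0.11 with normexp background correction and quantile normalization.

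Srebf1 did not pass. It read 0.27 and -0.09 in control, -0.12 and -0.46 with LPS, -0.27 and -0.04 with HF, and -0.09 and -0.02 with LPS+HF. Both LPS arrays lay below both control arrays and below both LPS+HF arrays, at -0.38 for LPS minus control (adjusted p = 0.254) and 0.23 for LPS+HF minus LPS (adjusted p = 0.546). Scd2, the desaturase of this family that was measurable, lay between 7.44 and 8.05 on all arrays and did not pass (-0.22 in both contrasts). Acly, which makes cytosolic acetyl-CoA from citrate, lay between 4.97 and 5.67, and Acaca, the acetyl-CoA carboxylase, between 3.70 and 4.44. Elovl5, an elongase of polyunsaturated fatty acids, lay between 3.08 and 3.87, its highest value on control replicate 1. For Acly, Acaca and Elovl5 the differences of LPS+HF minus LPS were -0.07, 0.10 and 0.20. Fads1, another desaturase, read -0.28 on control replicate 1, in a dimmed area, and 2.93 on control replicate 2. Its LPS minus control value of 1.59 rested on that array and was -0.02 without it.

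With HF alone (HF minus control) no member passed, 0 of 32 by limma, against 0.882% of all genes tested. At an unadjusted p under 0.05 there were 11 sterol genes and 1 fatty acid gene, of 4425 of all 22460 genes. Differences were below 0 for 22 of 24 sterol genes and 5 of 8 fatty acid genes, against 55.4% of all genes, and the medians were -0.31, -0.18 and -0.07 over all genes. With scaling to the array median these medians were 0.07, 0.20 and 0.32, so the sign of the sterol arm's median was not kept, although it stayed below that of all genes. Fdps differed most among the sterol genes, by -1.60 ± 0.24 (limma, adjusted p = 0.0534), followed by Msmo1 at -1.38 (0.179), Insig1 at -0.95 (0.0893), Idi1 at -0.90 (0.112), Scap at 0.88, with the opposite sign (0.148), Hsd17b7 at -0.78 (0.253) and Fdft1 at -0.77 (0.0703). Without control replicate 1, Fdft1, Fdps and Mvd passed, all lower (2.28% of all genes called), at -0.69, -1.25 and -0.99. After a correction for uneven areas of the arrays, Fdps, Idi1, Insig1, Msmo1, Mvd, Nsdhl and Pmvk passed lower and Scap and Elovl6 higher, with 10.6% of all genes called. Without control replicate 2, which leaves the uneven control array alone, 16 members passed (45.3% of all genes). Fdps passed in 8 of 21 alternatives, with a difference between -1.95 and -1.21 in all 21.

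**Figure D3:**
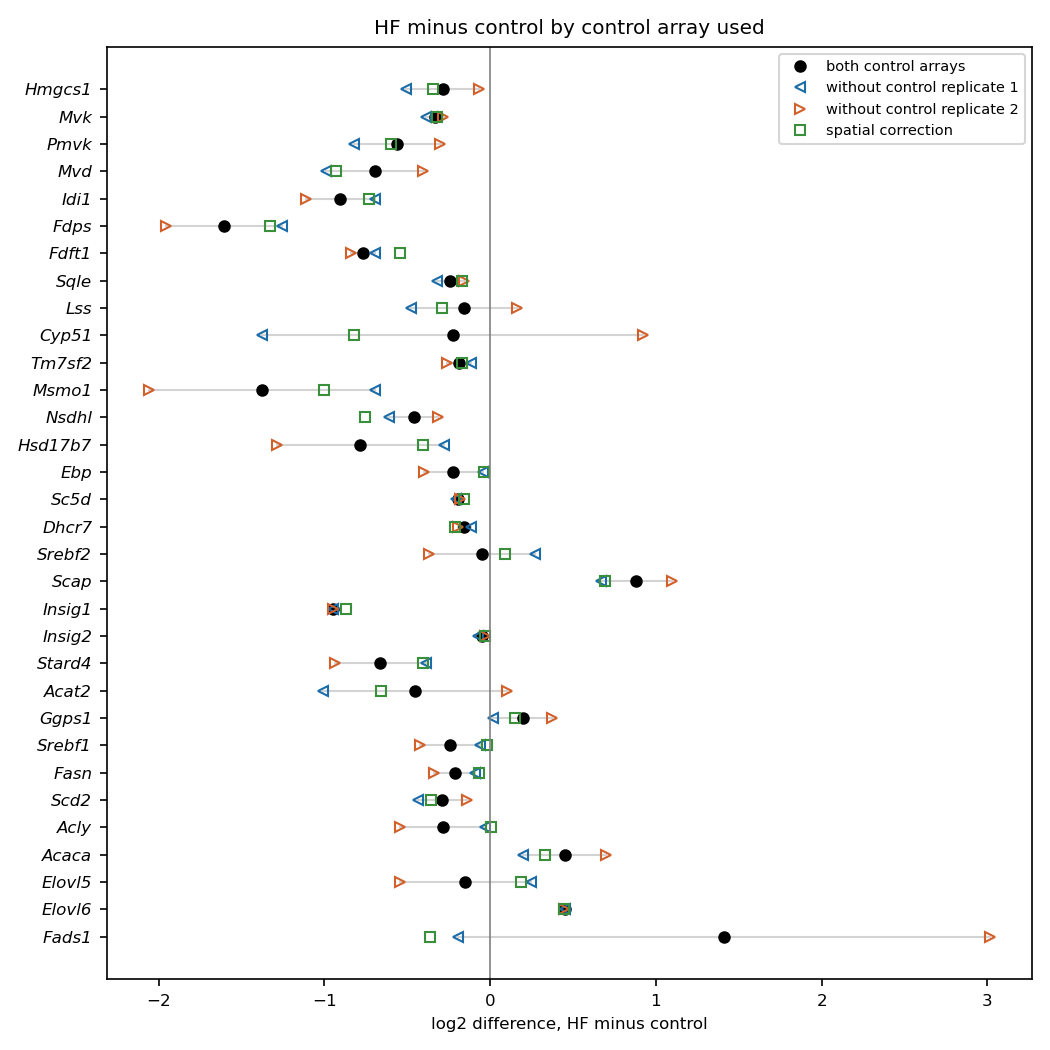
Log2 difference of HF minus control for each of the 32 tested members with both control arrays (black), without control replicate 1 (blue), without control replicate 2 (orange) and after the spatial correction (green). Fads1 moves from 1.41 to -0.20 without control replicate 1, and Fdps, Fdft1, Insig1 and Mvd lie below 0 in all 4 settings.

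Between the HF groups (LPS+HF minus HF), 0 of 32 members passed, by limma, against 1.28% of all genes. An unadjusted p under 0.05 (limma) was found for 3 of the 32 members and for 2102 of all 22460 genes. The medians were 0.02 in the sterol arm, -0.13 in the fatty acid arm and -0.08 over all genes. Mvd was at 0.83 ± 0.22 (limma, adjusted p = 0.231). Mvd passed in 4 of 21 alternatives, among them without control replicate 1 (3.95% of all genes called) and after the spatial correction (4.88%). Fasn was at -0.41 (adjusted p = 0.431) and Elovl6 at -0.38 (adjusted p = 0.371), with both LPS+HF arrays below both HF arrays for each. The comparisons share groups, so LPS minus control and LPS+HF minus LPS both use the LPS arrays, and opposite signs in them are not independent of each other.

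Whether the difference made by LPS depended on HF was tested as an interaction. Of the 32 members 0 passed, by limma, against 0.0534% of all genes. An unadjusted p under 0.05 (limma) was found for 5 of the 32 members and for 2595 of all 22460 genes. Fasn was at 0.97 ± 0.20 (limma, adjusted p = 0.199), Lss at -1.07 ± 0.33 (0.326), Mvd at -0.83 ± 0.31 (0.399), Idi1 at 0.82 ± 0.28 (0.355) and Insig2 at -0.68 ± 0.20 (0.304). After the spatial correction Fasn passed at 0.82 (3.18% of all genes called), and without control replicate 2, 14 members passed (35.3% of all genes). The rise of Mvd and Insig2 with LPS in the absence of HF was thus not shown to differ from that in its presence.

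Probes for other stretches of the same transcripts gave a further reading. In 12 member genes, 13 other probes passed the filter on background, and in LPS+HF minus LPS 9 of them had the sign of the probe used. Other probes of Pmvk (-1.06), Nsdhl (-1.17) and Insig2 (-0.97) passed lower as well, and that of Mvk was at -0.66 (adjusted p = 0.0560). A second Hsd17b7 probe passed at -0.75 (adjusted p = 0.0373), where the probe used did not. The second Fdft1 probe was above background on only 3 arrays and read -0.10 with an SE of 1.13. Signs differed for Ggps1, Srebf2 and both other probes of Acaca. In LPS minus control 10 of the 13 had the sign of the probe used, and those of Fdft1, Ggps1 and Pmvk did not. The second probe of Insig2 passed there too, at 0.89, and that of Stard4 was at -0.75 (adjusted p = 0.0535). The second Hsd17b7 probe passed at 0.93 (adjusted p = 0.0143), where the probe used gave 0.21 (adjusted p = 0.679).

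**Figure D4:**
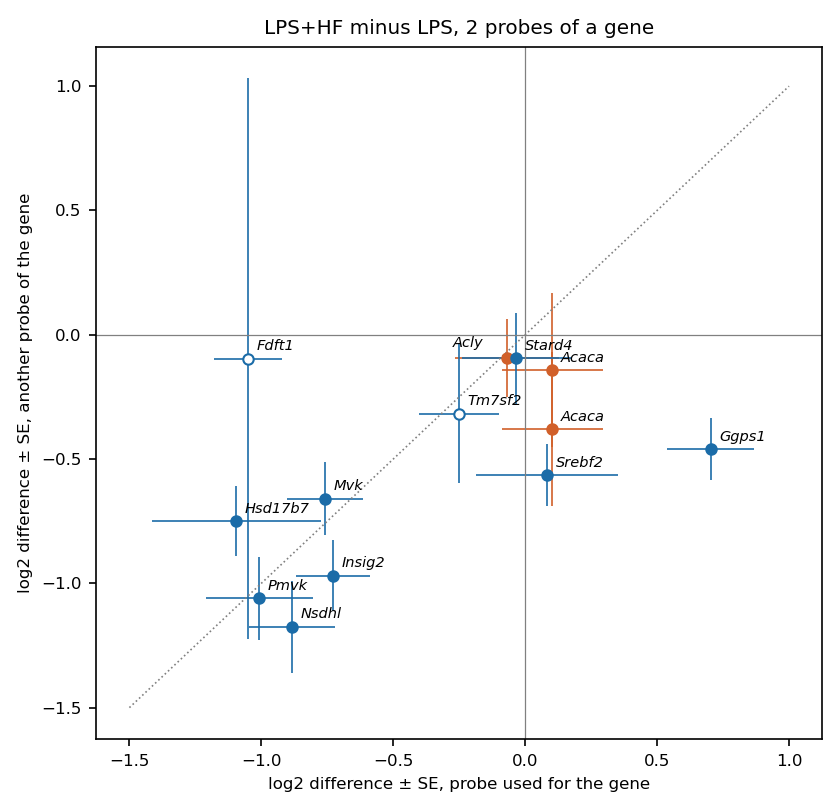
Log2 difference of LPS+HF minus LPS with its SE for the probe used (horizontal) and for another probe of the gene (vertical), the dotted line marking equal values and open circles marking other probes not above background on all 8 arrays. Mvk, Pmvk, Nsdhl, Insig2 and Hsd17b7 lie at or near the line in the lower left, and Ggps1 lies in the lower right, with opposite signs.

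Promoters of 4 genes that fell in LPS+HF minus LPS (Pmvk, Mvd, Nsdhl and Insig1), of the 2 that rose (Fasn and Elovl6) and of Hmgcs1, which did not pass, are shown because SREBPs bind short sterol regulatory elements close to gene starts, usually beside sites for NF-Y (CCAAT) and Sp1 (GGGCGG). RefSeq promoter windows of the assembly GRCm38.p6, from 250 bases before to 50 bases after the start, matched 27 of the 34 members, 20 of the sterol arm and 7 of the fatty acid arm. The 7 genes were picked after their values were seen. The stretches below hold the 200 bases before the start, 5′ to 3′ on the gene's strand. Capitals mark CCAAT or its reverse complement ATTGG, and TCACNNCAC.
Hmgcs1 promoter stretch, chr13:119690151-119690350, plus strand: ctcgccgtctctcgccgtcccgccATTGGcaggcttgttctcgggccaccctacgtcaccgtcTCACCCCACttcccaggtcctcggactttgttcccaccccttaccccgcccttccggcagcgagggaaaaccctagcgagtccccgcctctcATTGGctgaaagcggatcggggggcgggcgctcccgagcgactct
Pmvk promoter stretch, chr3:89454341-89454540, plus strand: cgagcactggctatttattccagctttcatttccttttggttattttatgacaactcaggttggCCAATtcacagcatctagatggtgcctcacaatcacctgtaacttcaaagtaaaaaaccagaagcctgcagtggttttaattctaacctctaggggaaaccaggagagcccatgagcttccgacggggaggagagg
Mvd promoter stretch, chr8:122443423-122443622, minus strand: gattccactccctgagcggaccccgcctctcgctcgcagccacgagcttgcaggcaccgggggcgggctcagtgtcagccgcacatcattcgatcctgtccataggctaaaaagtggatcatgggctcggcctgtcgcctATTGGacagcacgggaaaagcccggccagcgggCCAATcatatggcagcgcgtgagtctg
Nsdhl promoter stretch, chrX:72918321-72918520, plus strand: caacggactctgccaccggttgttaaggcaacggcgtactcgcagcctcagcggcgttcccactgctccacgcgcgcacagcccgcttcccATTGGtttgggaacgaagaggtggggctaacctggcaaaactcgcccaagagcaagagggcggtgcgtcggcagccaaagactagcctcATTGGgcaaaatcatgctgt
Insig1 promoter stretch, chr5:28071212-28071411, plus strand: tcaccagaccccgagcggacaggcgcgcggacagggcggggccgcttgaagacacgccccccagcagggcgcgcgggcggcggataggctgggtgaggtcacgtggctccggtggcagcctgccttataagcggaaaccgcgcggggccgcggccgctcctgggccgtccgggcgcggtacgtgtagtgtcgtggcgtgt
Fasn promoter stretch, chr11:120824548-120824747, minus strand: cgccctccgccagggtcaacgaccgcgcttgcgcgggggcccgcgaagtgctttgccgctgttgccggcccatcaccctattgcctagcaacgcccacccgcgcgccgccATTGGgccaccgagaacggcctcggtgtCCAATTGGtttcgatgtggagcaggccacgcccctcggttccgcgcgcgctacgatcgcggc
Elovl6 promoter stretch, chr3:129532186-129532385, plus strand: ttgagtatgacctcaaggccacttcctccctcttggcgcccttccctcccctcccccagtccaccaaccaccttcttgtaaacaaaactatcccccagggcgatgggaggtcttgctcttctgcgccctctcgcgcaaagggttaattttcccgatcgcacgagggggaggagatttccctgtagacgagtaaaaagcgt
Hmgcs1 carries a match to TCACNCCAC, a stricter form of the sterol regulatory element, between a pair of ATTGG matches. Mvd and Nsdhl hold 2 CCAAT matches each in the printed stretch (both strands counted) and Pmvk 1, while Insig1 and Elovl6 hold 0 there. Fasn holds 3, of which 1 CCAAT and 1 ATTGG overlap, and its start lies 619 bases inside the outer limit of the gene as annotated. In the full windows and on both strands, CCAAT was found in 18 of 20 sterol genes and 4 of 7 fatty acid genes, against 41.1% of 27025 genes with a window. GGGCGG was found in 18 of 20 and 3 of 7, against 38.2% of genes. TCACNCCAC was found in 1 member, Hmgcs1 (1.44% of genes), and the looser TCACNNCAC, which contains it, in 4, Dhcr7, Hmgcs1, Hsd17b7 and Msmo1 (4.37% of genes). Of the 9 sterol genes that fell in LPS+HF minus LPS, 7 have a window and all 7 hold CCAAT. A match is a description of the letters and not a site of binding.

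Genes around these pathways were read from 5 lists of neighbouring functions. In LPS+HF minus LPS, 3.26% of all genes tested fell and 2.99% rose, and 5366 of 22460 had an unadjusted p under 0.05 (limma). Of 10 other SREBP targets, 1 fell in LPS+HF minus LPS. This was Acss2, which makes acetyl-CoA from acetate and is a known SREBP target. It read 2.31 and 1.99 in control, 3.97 and 3.90 with LPS, 1.43 and 1.36 with HF, and 2.24 and 1.90 with LPS+HF. The LPS arrays were far the highest, an order of groups like that of Mvd. Acss2 rose by 1.78 ± 0.18 with LPS and fell by 1.86 ± 0.18 (3.64-fold; limma, adjusted p = 0.0110) with HF on top of LPS, the latter in 16 of 21 alternatives.

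Of 10 genes of SREBP processing and stability 0 passed in LPS+HF minus LPS. An unadjusted p under 0.05 (limma) was found for 1 of them, and for 5366 of all 22460 genes. The largest measured values were -0.95 for Paqr3, a Golgi protein that anchors the SCAP complex, and 0.69 for Erlin2, of the degradation machinery of the endoplasmic reticulum (adjusted p = 0.283 and 0.0769). Paqr3 was well above background on only 3 arrays and passed the filter through the LPS group, where it was highest, so its value is set in part by signals at background. Of 9 genes of the liver X receptor and cholesterol efflux 7 were tested and 0 passed (1 at an unadjusted p under 0.05), with Nr1h3, the receptor LXRα, at -0.76 (adjusted p = 0.0953) and Abcg1, a sterol exporter, at -0.32 (0.790). Of 10 genes of sterol storage, transport and oxysterols 8 were tested and 0 passed (3 at an unadjusted p under 0.05), with Npc2, a lysosomal sterol carrier, at -0.75 (0.0882) and Osbp, an oxysterol-binding protein, at 0.58 (0.297). Of 10 genes of fatty acid uptake and oxidation 2 fell, both lipid chaperones, against 3.26% of all genes. Fabp4 read 6.90 and 6.91 in control, 6.50 and 6.51 with LPS, 5.03 and 4.84 with HF, and 4.83 and 4.10 with LPS+HF, a fall of 2.04 ± 0.25 from LPS (4.11-fold; limma, adjusted p = 0.0156). Fabp5 fell by 1.17 ± 0.14 (2.24-fold; limma, adjusted p = 0.0144). Both also passed lower in HF minus control, at -1.97 and -1.05 (adjusted p = 0.0365 and 0.0396). The median differences of the 5 lists in LPS+HF minus LPS lay between -0.28 and 0.20, against -0.71 in the sterol arm.

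Some cell type markers moved in the same comparison. Of 8 microglia and macrophage markers 2 fell in LPS+HF minus LPS, Ptprc by 0.83 and Lyz2 by 1.59, against 3.26% of all genes. Both LPS+HF arrays lay below both LPS arrays for 5 of the 8 and above them for 2, Fcgr3 and Csf1r (41.2% and 32.7% of all genes). The summed level of the list was 9.26 and 9.17 with LPS and 9.10 and 8.90 with LPS+HF. The oligodendrocyte markers Mbp, Mag and Mog were well above background on all arrays. They did not pass, at -0.98, -0.46 and -0.25 (adjusted p = 0.238, 0.530 and 0.736; limma), and both LPS+HF arrays lay below both LPS arrays for Mbp and Mog. Of the 2 neuron markers tested 0 passed. An unadjusted p under 0.05 (limma) was found for 1 of them, and for 5366 of all 22460 genes. The summed level of the neuron list was 3.23 and 3.34 with LPS and 2.68 and 2.93 with LPS+HF. Of the 3 astrocyte markers tested 0 passed (0 at an unadjusted p under 0.05), and the summed level of that list was -1.90 and -1.66 with LPS and -1.92 and -1.70 with LPS+HF. The brightness of the arrays moved with HF too: before scaling, the 75th percentile was 247 to 286 on the arrays without HF and 346 to 527 on those with it. The part of these shifts in the members' differences was not tested.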

How the data were processed

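The deposited scanner files hold spot intensity values which, per the file headers, were made with Agilent Feature Extraction 11.5.1.1, with background subtraction and correction of trends across the array and no scaling between arrays. The authors also deposited a matrix of log2 values. Recomputing them showed that they are shifted to the array's 75th percentile and centred on the probe's median (within 0.01 for 99.9% of probes). The matrix served as an alternative.

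Processed signals of non-control spots were converted to log2, averaged over repeated spots and set relative to the 75th percentile of their array. Probes were kept where 1 group or more had both arrays well above background. Of 55681 probes, 50.3% were given a symbol through RefSeq transcripts. The kept probe with the highest mean stood for a gene. Group means were fitted with limma 3.58.1 (R 4.3.3) over all 8 arrays, with 5 comparisons and Benjamini-Hochberg adjustment over 22460 genes, two-sided, at 0.05. The residual degrees of freedom were 4 and the prior ones 2.04. The spatial correction took off the local deviation of an array, over windows 30 rows high and 15 columns wide, and left out spots dimmed over 4-fold. The fit was tested on simulated data. Alternatives were other background correction and scaling, the authors' matrix, other filters on dim probes, averaged probes, a trended variance, the replicate block, the spatial correction, only the arrays compared, and each array left out.

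The members, the 5 neighbouring lists and the markers were chosen with earlier results of these data known. One marker gene is not reported here. Every member that passed is named. Each array's value is given for members that passed in LPS+HF minus LPS or LPS minus control and for Srebf1, Srebf2, Scap, Insig1 and Insig2. Of each neighbouring list, up to 3 genes that passed in LPS+HF minus LPS are named, or the 2 largest differences where none did.

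Replicate numbers were not taken to pair samples: the replicate differences of 2 groups correlated between -0.09 and 0.27 across genes. With 1 slide and 1 scan, neither could be a block. Figures were drawn with Python 3.11.15 and matplotlib 3.10.9.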

Additional observations from a re-analysis of the deposited data

How the results depend on the processing

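Members called numbered 11 in LPS+HF minus LPS, 7 in LPS minus control and 0 in the other 3 comparisons. In LPS+HF minus LPS they were 1 with normexp background correction and quantile normalization, 0 with median scaling and 0 with no filter on dim probes. They were 18 with the spatial correction and 18 with only the arrays compared. All genes called were 230, 200, 168, 6388 and 7397 in that order, of 22460 tested (36799 with no filter). With any 1 of the LPS, HF or LPS+HF arrays left out, no member call was kept. Calls over all genes fell as well, from 1404: without LPS replicate 1 or 2, 0 of 22460 genes passed (2981 and 3115 at an unadjusted p under 0.05, limma), and without an HF or LPS+HF array between 7 and 309. In LPS minus control the members called were 1, 0, 2, 12 and 0 in the same order, and from 0 to 19 leaving out each array. In HF minus control they were 1 with probes above background on all arrays, 1 with a gene's probes averaged, 2 with a trended and robust variance, 9 with the spatial correction and from 0 to 16 leaving out each array. In LPS+HF minus HF they were 1 with the spatial correction and from 0 to 1 leaving out each array, and in the interaction 1 and from 0 to 14. All genes called in LPS minus control were 1017, 834, 822 (of 36799), 6455 and 67, in the order of settings first given. In HF minus control, 213 of 18492 genes were called with probes above background on all arrays. There, 232 were called with a gene's probes averaged, 231 with a trended and robust variance and 2384 with the spatial correction, of 22460 tested. With the spatial correction, 1097 were called in LPS+HF minus HF and 714 in the interaction. The cause of each change was not tested. An array left alone in its group was taken to vary as arrays of the other groups do.

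With the replicate number as a block, the pairing that the labels' numbers would imply, 2 members (Fdft1 and Mvd) were called in LPS+HF minus LPS, 3 (Fasn, Insig2 and Mvd) in LPS minus control, and 0 in the other comparisons. All genes called in LPS+HF minus LPS fell from 1404 to 592, and those in LPS minus control from 2502 to 1704.

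The spatial correction was listed with the unevenness of control replicate 1 already known. The alternatives named next leave control replicate 2 alone in its group. In LPS+HF minus LPS and in LPS minus control they called more of all genes than the main fit did. The rise in calls there was thus not confined to the members. Alternatives chosen after seeing the data were the spatial correction without control replicate 1 (18, 12, 4, 1 and 0 members in the order LPS+HF minus LPS, LPS minus control, HF minus control, then LPS+HF minus HF and the interaction) and leaving out control replicate 1 and HF replicate 1 (18, 11, 1, 0 and 0).

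Directions were kept by every called member in all alternatives tried, except Ebp (0.23) and Elovl6 (0.11) in LPS minus control. Both exceptions arose with normexp background correction and quantile normalization. Alternatives that changed only the variance, the block or arrays outside a comparison could not move its differences, so signs there were fixed in advance. The authors' matrix is shifted by a constant per probe, so it could hardly move them either. Mean pixel brightness was not used for normexp, which started from medians. Median scaling put the all-gene median of LPS minus control at 0.27 (from -0.08) and that of HF minus control at 0.32 (from -0.07). It changed the split of calls in LPS minus control from 1078 higher and 1424 lower to 572 and 262. With quantile normalization that split was 1183 and 1076.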
